A study of Homo sapiens with 8 samples.

Results

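Interferon-stimulated effector genes encode proteins that block virus entry, copying or release, or that mark other proteins for such roles. The set described here is a list of 49 such symbols, with the IFIT and OAS families left out. All 49 were among the 23228 genes of the deposited count files, and 46 passed the filter on low counts and were tested.

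Total RNA was sequenced with short single-end reads from 8 libraries in 4 groups of 2, all labelled as U87 MG, a human glioblastoma line grown in DMEM with fetal bovine serum. The control group was unmodified U87. The ERb_KO group (titled U87-ERβ-KO) had estrogen receptor beta, the ligand-activated transcription factor encoded by ESR2, knocked out with CRISPR/Cas9. The ERb1 group (U87-ERβ1) and the ERb5 group (U87-ERβ5) were labelled as knockout cells expressing the ERβ1 or the ERβ5 isoform, so by their labels both also carried the knockout. The comparisons address how loss of the receptor, and return of either isoform, differed in their expression. The sources used here do not give whether the modified lines were clones or pools, which promoter drove the isoforms, or whether paired libraries were grown separately. The p-values therefore measure the spread between these libraries, which may be technical.

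Interferons bind receptors at the cell surface, and the kinases JAK1 and TYK2 then phosphorylate STAT proteins, which join IRF9 in the complex ISGF3. ISGF3 binds a short sequence, the interferon-stimulated response element, near the start of its target genes. Cells make interferon when sensors such as the products of DDX58 and IFIH1 meet viral or misplaced nucleic acids, and tumour cells can hold part of the program on without infection.

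Libraries held 26760897 to 48076414 reads in genes. ESR2 had 25 and 20 reads in the control libraries, 23 and 21 in ERb_KO, 6 and 18 in the ERb1 libraries, and 7 and 10 in ERb5. In CPM, the count scaled to the library's size, these were 0.608 and 0.546, 0.528 and 0.692, 0.225 and 0.372, and 0.201 and 0.367. ERb_KO thus overlapped control, and the ERb1 and ERb5 libraries lay below both, on few reads. These levels did not follow the labels of knockout and returned isoform, for reasons not tested. The groups are called by their labels throughout. The glioma and astrocyte markers OLIG2, POSTN, S100B and AQP4 had 0 reads in every library, which allows up to 3 reads, or 0.062 to 0.113 CPM. GFAP reached at most 0.136 CPM, while 8 markers of luminal epithelium summed to 11539 to 16517 CPM in each library, against 72.1 to 98.1 CPM for 10 glioma and astrocyte markers. Of those 10, CD44 had 47.4 to 61.9 CPM, SOX2 had 11.4 to 30.2 and VIM had 1.82 to 12.4. The 8 luminal markers were KRT8, KRT18, CDH1, EPCAM, XBP1, GATA3, ESR1 and TFF1. ESR1, which encodes estrogen receptor alpha, had 106 to 141 CPM, and TFF1 had 254 to 471. This marker profile is not the one the glioblastoma label names, and the identity of the cells was not tested. The leukocyte marker PTPRC stayed at or below 0.0367 CPM, and CD3D, CLEC4C, LILRA4 and IL3RA had 0 reads in all 8. The summed level of 12 leukocyte markers was 5.12 to 7.10 CPM in the control, ERb_KO and ERb1 libraries and 10.4 to 14.4 CPM in ERb5, most of it CD68, a lysosomal protein that other cells also make. Its part in the results was not tested.

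Promoter sequences show a feature that many members share. It is the element that ISGF3 binds, and the list names interferon-stimulated genes. A high share could thus be anticipated from the choice of list and is a description only. In RefSeq windows running from 250 bases before to 50 bases after a gene's start (GRCh38.p14), the core of the interferon-stimulated response element, which reads GAAA, any 2 bases and GAAA (TTTC, any 2 bases and TTTC on the other strand), was found in 29 of the 41 members with an entry, a share of 70.7%. The same letters were found in 1195 of 27305 genes with an entry, a share of 4.38%. The 200 bases before the start are printed 5′ to 3′ on the plus strand for members with large changes and different arrangements of the motif, whose matches are in capitals. In ISG15 the 2 matches overlap, in IFI44L 2 identical matches lie in a repeated stretch, in RTP4 2 matches lie near the start, in IFI27 the matches lie on opposite strands, and in XAF1 no match is present. IFITM1 has another match that runs across its start and is not shown. RSAD2 has 2 windows, and the one printed was taken because it holds a match, which the other does not.
ISG15 (chr1:1013297-1013496): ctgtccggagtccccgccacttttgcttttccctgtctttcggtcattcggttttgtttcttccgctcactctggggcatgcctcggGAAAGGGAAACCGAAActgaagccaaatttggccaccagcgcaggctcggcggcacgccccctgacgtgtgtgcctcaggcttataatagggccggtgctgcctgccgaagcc
IFI44L (chr1:78620248-78620447): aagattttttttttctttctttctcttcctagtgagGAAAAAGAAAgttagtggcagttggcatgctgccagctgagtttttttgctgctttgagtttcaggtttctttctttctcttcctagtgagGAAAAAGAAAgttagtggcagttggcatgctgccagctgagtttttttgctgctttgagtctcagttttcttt
RSAD2 (chr2:6877577-6877776): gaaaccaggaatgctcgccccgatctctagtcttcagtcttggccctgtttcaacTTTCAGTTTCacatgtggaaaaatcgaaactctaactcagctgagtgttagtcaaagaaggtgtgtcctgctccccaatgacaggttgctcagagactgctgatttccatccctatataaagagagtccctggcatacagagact
RTP4 (chr3:187368185-187368384): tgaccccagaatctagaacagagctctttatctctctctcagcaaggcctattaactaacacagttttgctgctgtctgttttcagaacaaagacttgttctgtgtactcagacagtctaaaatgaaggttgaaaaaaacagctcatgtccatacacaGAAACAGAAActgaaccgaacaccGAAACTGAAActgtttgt
IFITM1 (chr11:313840-314039): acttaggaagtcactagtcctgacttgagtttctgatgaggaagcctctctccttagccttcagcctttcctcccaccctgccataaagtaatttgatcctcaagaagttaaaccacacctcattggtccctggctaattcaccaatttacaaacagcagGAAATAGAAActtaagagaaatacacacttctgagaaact
IFI27 (chr14:94110536-94110735): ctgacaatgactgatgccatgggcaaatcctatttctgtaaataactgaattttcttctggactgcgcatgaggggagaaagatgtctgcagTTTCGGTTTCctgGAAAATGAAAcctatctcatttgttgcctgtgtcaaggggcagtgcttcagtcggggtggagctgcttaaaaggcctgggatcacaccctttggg
XAF1 (chr17:6755846-6756045): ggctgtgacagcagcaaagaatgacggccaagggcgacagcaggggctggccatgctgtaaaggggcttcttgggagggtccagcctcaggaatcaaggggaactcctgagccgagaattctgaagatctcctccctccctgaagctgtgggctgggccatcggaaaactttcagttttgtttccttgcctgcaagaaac

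A match is a description of the letters and not a measured binding site, and its absence in XAF1 covers these letters in this window only. A wider spacing, with any 3 bases between the same letters on either strand, was found in 4 of the 41 members (9.76%) and in 3.54% of all genes. The letters TTCNNNGAA, the core of a site for STAT dimers, were found in 12 of 41 (29.3%) and in 9.38% of all genes. IFITM2, GBP2, TRIM22, PARP10, MX2, LAMP3, PHF11 and USP18 had no entry. Between ERb_KO and control the median log2 difference was 1.97 over the 27 tested members with a match and 2.13 over the 11 without one. Between ERb1 and ERb_KO it was -1.54 and -1.51, between ERb5 and ERb_KO 0.99 and 0.73, and between ERb5 and ERb1 2.40 and 2.39.

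The members stood high together in the libraries labelled ERb_KO and higher still in those labelled ERb5, and they were low in control and ERb1. Summed over the 49 members, the level was 2052 and 2148 CPM in the control libraries, 8231 and 7667 in ERb_KO, 3433 and 3639 in the ERb1 libraries, and 11672 and 19985 in ERb5. The 2 ERb5 libraries were the highest of the 8 and differed most from each other, and the groups did not overlap. In a bulk library a larger share of responding cells and more RNA in each cell cannot be told apart. Mean levels followed the order control, ERb1, ERb_KO, ERb5 in 41 of the 46 tested members, an order held by 4.6% of all 13915 tested genes, and ERb5 was highest in all tested members but LAMP3, which was highest in ERb_KO. In the heat map of all tested members these steps are visible gene by gene.

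**Figure D1:**
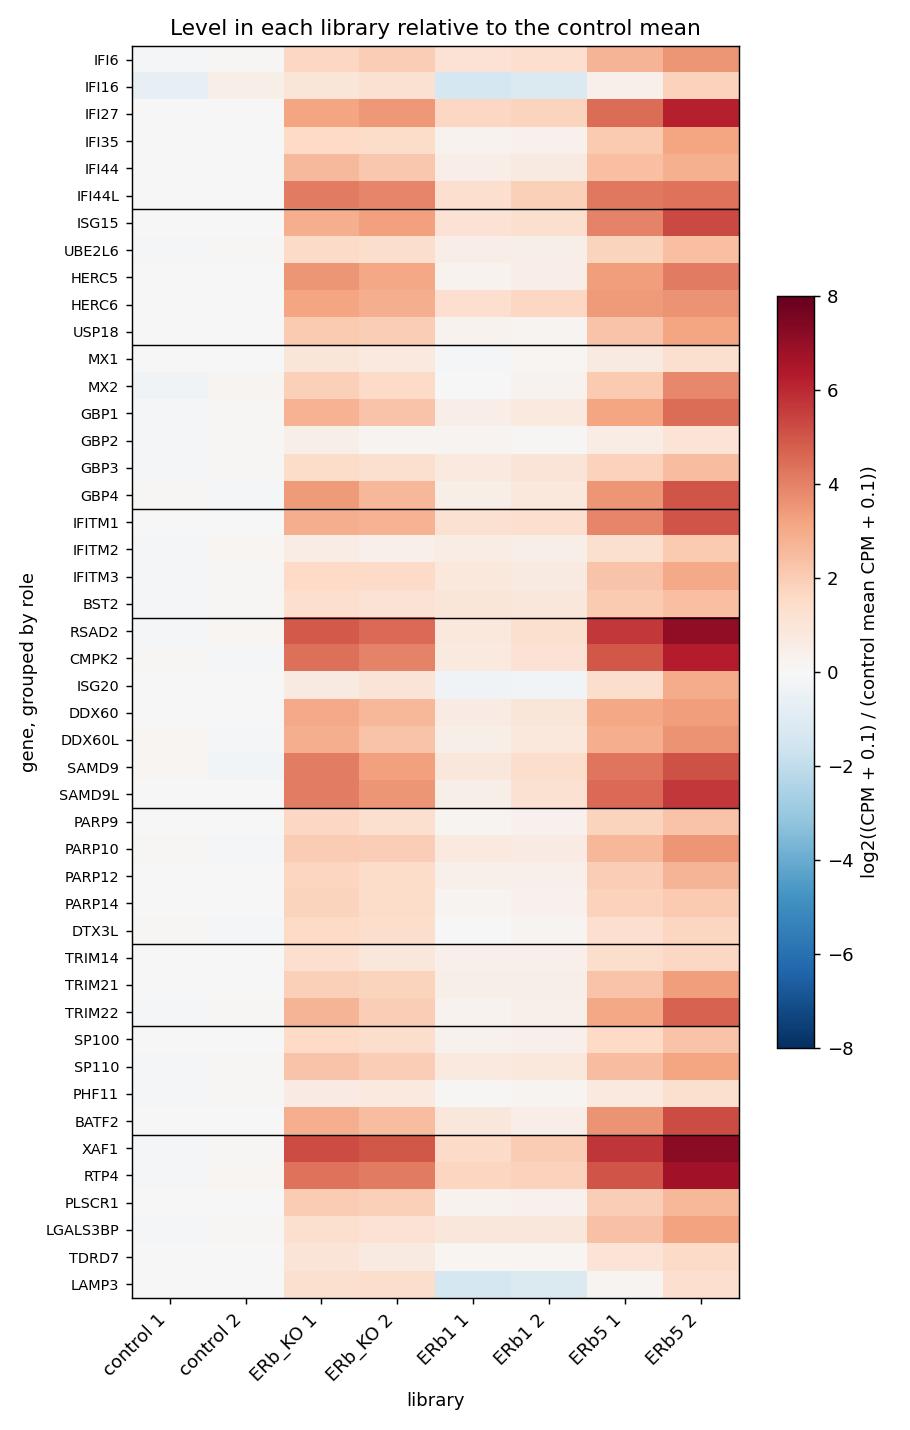
Heat map of the 46 tested members (rows, grouped by role and divided by lines) in the 8 libraries (columns). Colour gives log2 of the level over the control mean, after adding 0.1 CPM to each. Red is above and blue below the control mean, and the ERb5 columns and then the ERb_KO columns are the reddest.

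Between the ERb_KO and control libraries, 41 of the 46 tested members rose and 0 fell at an adjusted p under 0.05 by edgeR's quasi-likelihood test, which serves as the threshold throughout. Of all tested genes 8.98% rose and 8.52% fell. At an unadjusted p under 0.05 the counts were 43 and 0, and DESeq2 called 42 higher and 0 lower. The median log2 fold change was 1.94 over the members and 0.01 over all tested genes, and 38 of the 41 rose by 2-fold or more. All 46 had both ERb_KO libraries above both control libraries, as 35.5% of all tested genes did. The 5 that did not pass the test were IFI16, MX2, GBP2, IFITM2 and ISG20. With 1 control or ERb_KO library left out, 29 to 39 members rose, and 29 did so in all 4 such fits.

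Between ERb1 and ERb_KO, 38 of the 46 members fell and 0 rose, while 12.5% of all tested genes fell and 12.4% rose. At an unadjusted p under 0.05 the counts were 43 lower and 0 higher, and DESeq2 called 39 lower and 0 higher. The median log2 fold change was -1.53, against -0.00 over all tested genes, and 44 members had both ERb1 libraries below both ERb_KO libraries, as 31.9% of all tested genes did. With trends in GC content and transcript length removed, 38 members fell, 36 of them among the 38 above. BST2 and IFI6 gained the call and PHF11 and TRIM22 lost it. Without the library ERb1 1 the count of falls was 22, and it was 34 at most with any other of the 4 libraries left out.

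Between ERb5 and ERb_KO, 33 of the 46 members rose and 0 fell, beside 14.7% of all tested genes that rose and 13.5% that fell. At an unadjusted p under 0.05 the counts were 37 and 0, and DESeq2 called 34 higher and 0 lower. The median log2 fold change was 0.91, against 0.01 over all tested genes, and 37 members had both ERb5 libraries above both ERb_KO libraries, as 32.7% of all tested genes did. Like the share of all tested genes called, which moved the same way in each fit named here, this count depended on single libraries. It was 16 without ERb5 2, 41 without ERb5 1, 18 without ERb_KO 1 and 5 without ERb_KO 2, and it was 10 with the other groups left out of the fit.

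Between ERb5 and ERb1, both labelled as knockout cells with an isoform, all 46 tested members were higher in ERb5 and 0 lower. Of all tested genes 3.49% were higher and 1.18% lower, and DESeq2 also called 46 members higher and 0 lower. The median log2 fold change was 2.39, against -0.01 over all tested genes, and 44 members differed by 2-fold or more. No member's libraries overlapped between these groups, while 22.1% of all tested genes had both ERb5 libraries above both ERb1 libraries. Without ERb1 1 the count was 23 and without ERb1 2 it was 27, while without ERb5 1 it was 46 and without ERb5 2 it was 42. With the other groups left out of the fit it was 28, and the share of all tested genes called went from 4.66% to 3.11%. That share also fell when either ERb1 library was left out.

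These comparisons share the libraries of ERb_KO, ERb1 and ERb5, so their values are given side by side and not as independent results. The plot of fitted changes shows each member in the 4 comparisons.

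**Figure D2:**
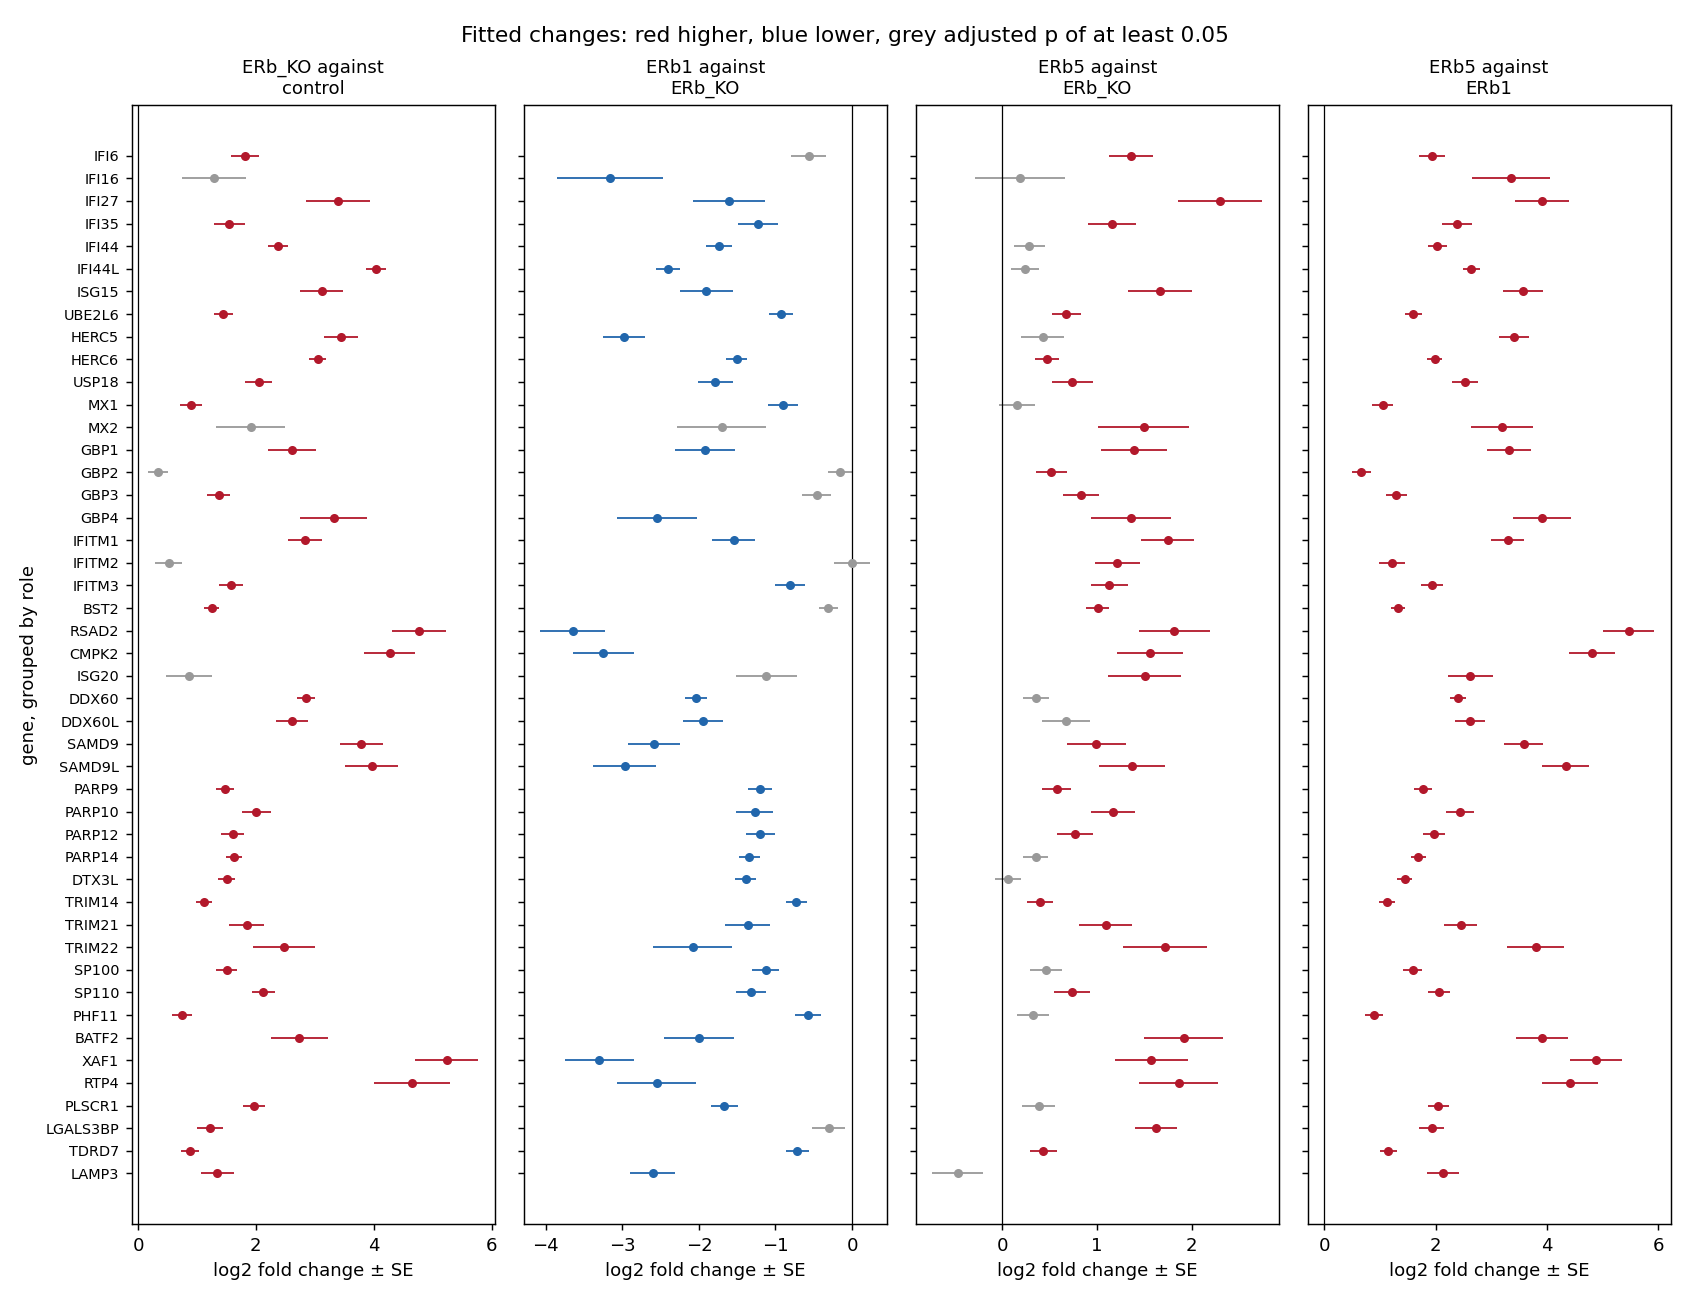
Fitted log2 fold change with its standard error (horizontal axes) of the 46 tested members (rows, by role) in 4 comparisons (panels). Red points passed the test upward, blue ones downward and grey ones did not pass. In the panel of ERb_KO against control 41 points are red, in ERb1 against ERb_KO 38 are blue, in ERb5 against ERb_KO 33 are red, and in ERb5 against ERb1 all 46 are red.

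Among the IFI-named genes, an old family name for transcripts induced by interferon alpha or gamma, 5 of 6 rose in ERb_KO, 5 of 6 fell in ERb1 against ERb_KO, and 3 of 6 rose in ERb5 against ERb_KO. IFI6, a small membrane protein of mitochondria and endoplasmic reticulum that protects cells from apoptosis and flaviviruses, had 350.5 and 407 CPM in the control libraries, 1207 and 1466 in ERb_KO, 859.6 and 943 in the ERb1 libraries, and 2469 and 4389.7 in ERb5. No group overlapped another, and ERb1 stood between control and ERb_KO. IFI6 rose by 1.82 ± 0.23 in ERb_KO (log2, SE, adjusted p = 0.00188) and by a further 1.36 ± 0.23 in ERb5 (adjusted p = 0.00413), whereas its difference of -0.57 ± 0.22 between ERb1 and ERb_KO did not pass (adjusted p = 0.0923). With trends in GC content and transcript length removed, that difference was -0.79 and passed (adjusted p = 0.0168).

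IFI44L, a cytoplasmic protein that restrains the interferon response, went from 33.4 and 33.5 CPM in control to 594 and 509 in ERb_KO, while ERb1 had 84.6 and 123 and ERb5 had 625 and 676. The ERb5 libraries were close above the ERb_KO ones. Its log2 rise in ERb_KO was 4.04 ± 0.17 (adjusted p = 5.8e-07) and its fall in ERb1 against ERb_KO was -2.41 ± 0.16 (adjusted p = 5.42e-06). The difference between ERb5 and ERb_KO, 0.24 ± 0.15, did not pass (adjusted p = 0.249). IFI27, a mitochondrial protein, showed another pattern, with 1.7 and 1.77 CPM in the control libraries, 16.6 and 20.1 in ERb_KO, 5.67 and 6.28 in the ERb1 libraries, and 41.1 and 139 in ERb5. Its log2 rise of 2.30 ± 0.45 in ERb5 over ERb_KO (adjusted p = 0.0078) was the largest of the members, and the second ERb5 library held 3.39 times the level of the other after 0.1 CPM was added to each. IFI16, a nuclear DNA sensor, was the scarcest tested member, with 8 and 19 reads in the control libraries, 34 and 29 in ERb_KO, 2 and 5 in the ERb1 libraries, and 18 and 41 in ERb5. Its fall in ERb1 against ERb_KO, -3.16 ± 0.70, passed (adjusted p = 0.00785) and its difference in ERb_KO, 1.29 ± 0.54, did not (adjusted p = 0.115).

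The ISG15 system joins a ubiquitin-like protein to new proteins. ISG15 is the modifier, UBE2L6 its conjugating enzyme, HERC5 its main human ligase, HERC6 a relative of that ligase, and USP18 the protease that removes it and also blocks the type I receptor. All 5 rose in ERb_KO and all 5 fell in ERb1 against ERb_KO, and 4 of 5 rose in ERb5 over ERb_KO. ISG15 had 69 and 66.7 CPM in the control libraries, 516 and 663 in ERb_KO, 149 and 166 in the ERb1 libraries, and 1068 and 2671 in ERb5. The groups were separate, and the ERb5 libraries differed from each other by 2.50-fold after the same addition. The log2 change of ISG15 was 3.12 ± 0.36 in ERb_KO (adjusted p = 0.00149), -1.90 ± 0.34 in ERb1 against ERb_KO (adjusted p = 0.00473) and 1.67 ± 0.34 in ERb5 against ERb_KO (adjusted p = 0.0092).

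UBE2L6 had 127 and 139 CPM in the control libraries, 379 and 346 in ERb_KO, 196 and 186 in the ERb1 libraries, and 462 and 696 in ERb5. It moved in the same order as ISG15 over a narrower range, rising by 1.45 ± 0.16 in ERb_KO (log2, adjusted p = 0.0005). Scaled to the length of the canonical transcript, the mean control levels of ISG15 and UBE2L6 were 107 and 109 CPM per kilobase, and the mean ERb5 levels were 2935 and 475. HERC5 rose by 3.45 ± 0.28 in ERb_KO (adjusted p = 8.3e-05) and fell by 2.98 in ERb1 against ERb_KO (log2, SE 0.28, adjusted p = 3.85e-05). It was the member of this system whose difference between ERb5 and ERb_KO, 0.42 ± 0.23, did not pass (adjusted p = 0.184). HERC6 and USP18 rose in ERb_KO by 3.05 ± 0.14 and 2.05 ± 0.23. USP18 has a near-identical copy elsewhere in the genome, so its level is uncertain, because reads that fit more than 1 place were not counted.

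The large GTPases act as self-assembling coats against viruses and intracellular microbes. MX1 and MX2 trap viral nucleoproteins and capsids, and the guanylate-binding proteins, GBP1 to GBP4, assemble on pathogen membranes and respond to interferon gamma as well as to type I interferon. Of the 6, 4 rose in ERb_KO, 3 fell in ERb1 against ERb_KO and 5 rose in ERb5 over ERb_KO. GBP2 had 26.4 and 30.2 CPM in the control libraries, 38.5 and 32.9 in ERb_KO, 33.6 and 30.9 in the ERb1 libraries, and 41.9 and 60.6 in ERb5. Its ERb1 libraries overlapped those of ERb_KO. The log2 difference of GBP2 in ERb_KO, 0.34 ± 0.16, did not pass (adjusted p = 0.164), while its difference between ERb5 and ERb1, 0.67 ± 0.16, did (adjusted p = 0.0388).

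GBP3 had 11.4 and 13.3 CPM in the control libraries, 34.1 and 29.6 in ERb_KO, 21.3 and 24.9 in the ERb1 libraries, and 44.2 and 69.5 in ERb5, with no overlap between groups. It rose by 1.37 ± 0.20 in ERb_KO (log2, adjusted p = 0.00202). GBP1 and GBP4, at 2.41 and 0.551 CPM on average in control, rose by 2.62 ± 0.41 (adjusted p = 0.00475) and 3.32 ± 0.56 (adjusted p = 0.00674), so the 4 neighbouring GBP genes of chromosome 1 ranged from 0.34 to 3.32 on the log2 scale. MX2 ran at 0.56 and 0.819 CPM in the control libraries, 2.91 and 2.21 in ERb_KO, 0.676 and 0.868 in the ERb1 libraries, and 3.27 and 11.5 in ERb5. With 0.1 CPM added to each, the 2 ERb5 libraries of MX2 differed by 3.43-fold, the widest gap of any member. MX2 missed the threshold in ERb_KO against control (1.91 ± 0.59, adjusted p = 0.0543) and passed in ERb5 against ERb1 (3.20 ± 0.56, adjusted p = 0.0124). MX1 rose by 0.90 ± 0.19 in ERb_KO (adjusted p = 0.0122).

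The membrane restriction factors block viruses at the cell's membranes, the IFITM proteins at fusion and BST2, also called tetherin, at release. Of the 4, 3 rose in ERb_KO, 2 fell in ERb1 against ERb_KO, and all 4 rose in ERb5 over ERb_KO. IFITM3 had 182 and 211 CPM in the control libraries, 596 and 579 in ERb_KO, 351 and 319 in the ERb1 libraries, and 966 and 1610.0 in ERb5. IFITM1 had 29.8 and 32.1 CPM in the control libraries, 231 and 210.3 in ERb_KO, 72.6 and 78.6 in the ERb1 libraries, and 471 and 1013 in ERb5. Neither had overlapping groups, and IFITM1 moved over the wider range.

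IFITM1 rose by 2.83 ± 0.30 in ERb_KO (log2, adjusted p = 0.0009) and by 1.75 ± 0.28 in ERb5 over ERb_KO (adjusted p = 0.00386). IFITM3 rose by 1.58 ± 0.20 (adjusted p = 0.0014) and by 1.13 ± 0.19 (adjusted p = 0.00399). IFITM2 lies on chromosome 11 within 644 bases of IFITM1 (GRCh37, chr11:303655-309397), yet its ERb_KO difference was 0.52 ± 0.24 (adjusted p = 0.151) and its difference between ERb1 and ERb_KO was 0.00 ± 0.23 (adjusted p = 0.996). It rose in ERb5 over ERb_KO by 1.22 ± 0.24 (adjusted p = 0.00762). The IFITM genes are near-identical in parts, so reads that fit more than 1 of them were not counted and their levels are uncertain. BST2 was called in ERb5 over ERb_KO (1.01 ± 0.13, adjusted p = 0.000552) and kept that call in every fit that left out 1 library, as did IFI6, IFITM1, IFITM3 and LGALS3BP, 5 of the 33 members.

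**Figure D3:**
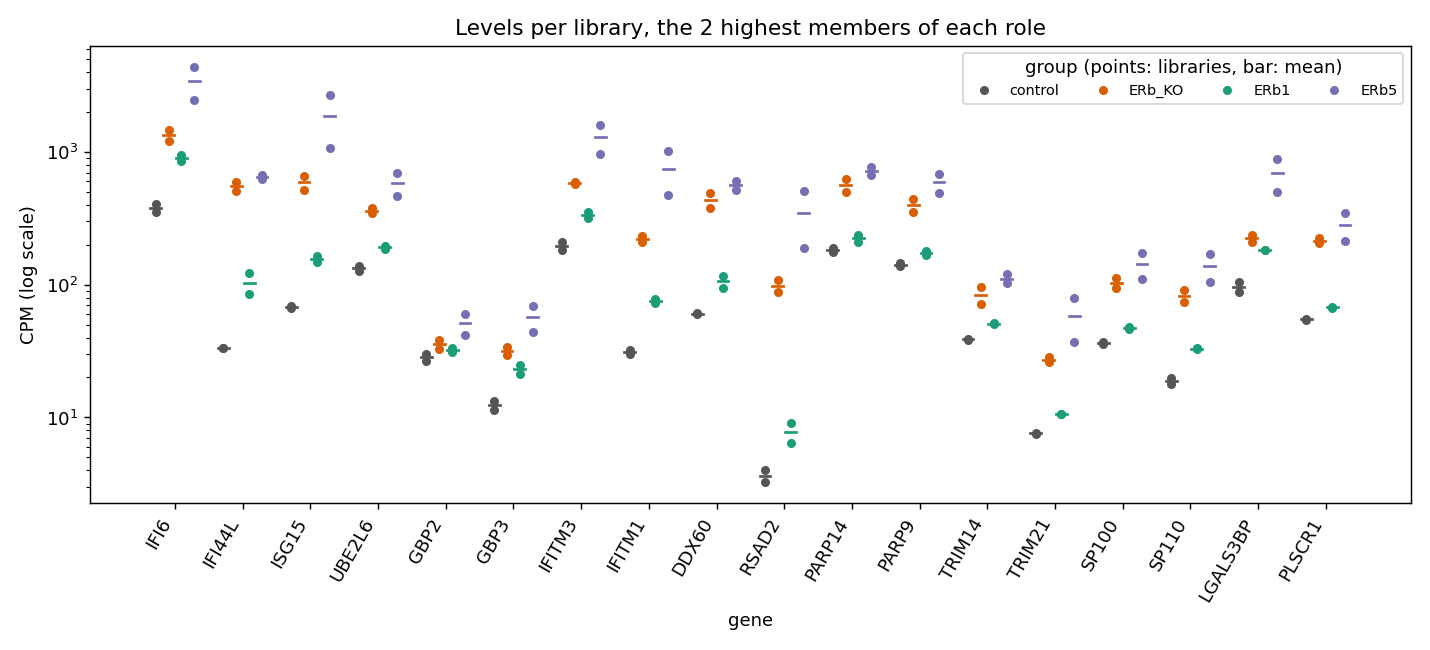
Level in CPM (vertical axis, log scale) of the members named by role, the 2 with the highest mean level in each role list, in the 8 libraries. Points are libraries and short bars are group means. The ERb5 mean is the highest and the control mean the lowest for each gene, and SP100 and PLSCR1 have ERb5 points among those of ERb_KO.

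Effectors acting on nucleotides and nucleic acids had the highest median log2 change of the role lists in ERb_KO against control, 3.79. RSAD2 (viperin) makes a chain-terminating nucleotide, CMPK2 is the mitochondrial nucleotide kinase beside it in the genome, ISG20 is an exonuclease, DDX60 and DDX60L are helicase-like proteins, and SAMD9 and SAMD9L restrict poxviruses and shut down translation. Of the 7, 6 rose in ERb_KO, 6 fell in ERb1 against ERb_KO and 5 rose in ERb5 over ERb_KO. RSAD2 had 3.26 and 3.99 CPM in the control libraries, 109 and 87.6 in ERb_KO, 6.46 and 9.03 in the ERb1 libraries, and 188 and 508 in ERb5. The groups did not overlap, and the ERb1 libraries lay near the control ones.

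RSAD2 rose by 4.77 ± 0.46 in ERb_KO (log2, adjusted p = 0.000727) and showed the largest fall of the members in ERb1 against ERb_KO, -3.65 ± 0.43 (adjusted p = 0.000544). It also had the largest difference between ERb5 and ERb1, 5.47 ± 0.45 (adjusted p = 0.000392). CMPK2 lies head to head with RSAD2 on chromosome 2, their GRCh37 annotations chr2:6980701-7006766 and chr2:7005688-7038370 overlapping at the 5′ ends though not in canonical exons. Its values were 4.27 ± 0.43 in ERb_KO, -3.25 ± 0.40 in ERb1 against ERb_KO and 4.81 ± 0.42 in ERb5 against ERb1. The count files do not say whether strand was used, so reads of the shared stretch cannot be told apart.

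DDX60 had 59.7 and 60.9 CPM in the control libraries, 490.4 and 381 in ERb_KO, 95.2 and 117 in the ERb1 libraries, and 519 and 600.1 in ERb5. Its ERb5 libraries were just above those of ERb_KO, and its difference of 0.36 ± 0.14 between them did not pass (adjusted p = 0.0692). SAMD9L rose by 3.97 ± 0.45 in ERb_KO (adjusted p = 0.0013) and was 4.34 ± 0.42 higher in ERb5 than in ERb1 (adjusted p = 0.000699). ISG20 had 17.6 and 17.5 CPM in the control libraries, 28.7 and 35.4 in ERb_KO, 14.1 and 15.3 in the ERb1 libraries, and 46.5 and 136 in ERb5. Its ERb_KO difference of 0.87 ± 0.39 did not pass (adjusted p = 0.15), and its rise in ERb5 over ERb_KO, 1.51 ± 0.38, did (adjusted p = 0.0206).

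PARP9, PARP10, PARP12 and PARP14 belong to the ADP-ribosyltransferase family, and DTX3L is the ubiquitin ligase that pairs with PARP9. All 5 rose in ERb_KO and all 5 fell in ERb1 against ERb_KO, within narrow ranges of 1.48 to 2.01 and -1.39 to -1.20 on the log2 scale. PARP14 had 190.2 and 175 CPM in the control libraries, 631 and 499 in ERb_KO, 210.2 and 236 in the ERb1 libraries, and 666 and 776 in ERb5. PARP9 had 145 and 138 CPM in the control libraries, 441 and 351 in ERb_KO, 166 and 178 in the ERb1 libraries, and 493 and 686 in ERb5. In both genes ERb1 stood close above control and ERb5 close above ERb_KO.

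PARP14 rose by 1.63 ± 0.13 in ERb_KO (log2, adjusted p = 6.92e-05), and its difference of 0.35 ± 0.13 between ERb5 and ERb_KO did not pass (adjusted p = 0.0602). PARP9 and DTX3L lie head to head on chromosome 3 and rose alike in ERb_KO, by 1.48 (SE 0.15) and 1.5 (SE 0.14). In ERb5 against ERb_KO PARP9 rose by 0.57 ± 0.15 (adjusted p = 0.0179), while the value for DTX3L was 0.06 ± 0.14 (adjusted p = 0.774). The difference between the 2 genes was not tested.

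The TRIM family proteins TRIM14, TRIM21 and TRIM22 take part in antiviral signalling, antibody-bound virus destruction and restriction of viral transcription. All 3 rose in ERb_KO, fell in ERb1 against ERb_KO and rose in ERb5 over ERb_KO. With trends in GC content and transcript length removed, TRIM22 lost each of these calls (adjusted p = 0.0849, 0.0886 and 0.059). In fits that left out 1 library, TRIM21 and TRIM22 also lost calls in each comparison. TRIM14 had 39.1 and 38.3 CPM in the control libraries, 96.8 and 71.8 in ERb_KO, 51.6 and 50.2 in the ERb1 libraries, and 103 and 119.9 in ERb5. TRIM21 had 7.52 and 7.7 CPM in the control libraries, 28.3 and 26.2 in ERb_KO, 10.6 and 10.6 in the ERb1 libraries, and 37 and 79.5 in ERb5. Neither had overlapping groups. The ERb_KO rises were 1.13 ± 0.14 for TRIM14 (adjusted p = 0.000892) and 1.84 ± 0.30 for TRIM21 (adjusted p = 0.00541).

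The nuclear proteins SP100 and SP110, of nuclear bodies, PHF11, a zinc-finger protein, and BATF2, a transcription factor of the AP-1 superfamily, all rose in ERb_KO and fell in ERb1 against ERb_KO, and SP110 and BATF2 rose in ERb5 over ERb_KO. The BATF2 and PHF11 falls, and the PHF11 rise in ERb_KO, lost the call when any 1 of the libraries compared was left out. With trends in GC content and transcript length removed, the PHF11 fall did not hold (adjusted p = 0.0635). SP100 had 35.7 and 37.1 CPM in the control libraries, 112 and 95.2 in ERb_KO, 46.7 and 47.8 in the ERb1 libraries, and 111 and 173 in ERb5, so that ERb5 1 lay within the range of the ERb_KO libraries. SP110 had 17.9 and 20.0 CPM in the control libraries, 91.3 and 74.1 in ERb_KO, 32.7 and 33.3 in the ERb1 libraries, and 105 and 170.0 in ERb5, without overlap. SP110 rose by 2.13 ± 0.20 in ERb_KO (log2, adjusted p = 0.000309) and SP100 by 1.51 ± 0.18 (adjusted p = 0.000751). BATF2 rose by 1.92 ± 0.42 in ERb5 over ERb_KO (adjusted p = 0.0119), next after IFI27, with 33 and 99.8 CPM in the 2 ERb5 libraries.

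The other effectors held the member with the largest rise in ERb_KO, and all 6 that were tested rose there, 5 fell in ERb1 against ERb_KO and 4 rose in ERb5 over ERb_KO. XAF1, which binds the apoptosis inhibitor XIAP, rose by 5.24 ± 0.53 (log2, adjusted p = 0.000885), from 0.851 and 1.01 CPM in control to 38.7 and 31.5 in ERb_KO. It had 2.89 and 4.07 CPM in ERb1 and 54.5 and 155 in ERb5, so the groups did not overlap. RTP4, a chaperone of receptor transport, rose by 4.65 ± 0.64 (adjusted p = 0.0031) from 0.243 and 0.328 CPM to 7.6 and 6.72, with 12.8 and 39.8 CPM in ERb5. Against control, XAF1 and RTP4 were 6.81 ± 0.54 and 6.51 ± 0.62 higher in ERb5. All tested members but IFI16 had at least 10 reads in every library.

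LGALS3BP, a secreted glycoprotein, had 88.2 and 105 CPM in the control libraries, 238 and 211 in ERb_KO, 183 and 182 in the ERb1 libraries, and 500.4 and 889 in ERb5. PLSCR1, a phospholipid scramblase, had 55.1 and 54.6 CPM in the control libraries, 224 and 205 in ERb_KO, 67 and 68.4 in the ERb1 libraries, and 214 and 348 in ERb5. In ERb1, LGALS3BP lay nearer to ERb_KO than to control and PLSCR1 nearer to control, and ERb5 1 lay within the ERb_KO range for PLSCR1. LGALS3BP differed from ERb_KO by -0.30 ± 0.22 in ERb1 (adjusted p = 0.33) and rose by 1.63 ± 0.22 in ERb5 (adjusted p = 0.00176). PLSCR1 fell by 1.67 in ERb1 (log2, SE 0.18, adjusted p = 0.000163), and its ERb5 difference was 0.39 ± 0.18 (adjusted p = 0.121). TDRD7, a Tudor-domain protein, rose by 0.88 ± 0.15 in ERb_KO.

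LAMP3, a lysosomal membrane protein of maturing dendritic cells and of some carcinomas, was the one tested member with its highest mean in ERb_KO. It had 21.3 and 19.7 CPM in the control libraries, 50.3 and 53.8 in ERb_KO, 7.81 and 9.19 in the ERb1 libraries, and 24.3 and 51.1 in ERb5. It rose in ERb_KO by 1.35 ± 0.28 (log2, adjusted p = 0.0136) and fell in ERb1 below control, by 1.26 (SE 0.29, adjusted p = 0.0469). Each of these calls was lost when any of the 4 libraries compared was left out. With trends in GC content and transcript length removed neither call held, and the ERb_KO rise was 1.21 (adjusted p = 0.0689). The value of LAMP3 in ERb5 against ERb_KO was -0.47 ± 0.27 (adjusted p = 0.217). It was -1.11 without ERb5 2 and -0.03 without ERb5 1.

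EPSTI1 and the chemokine genes CXCL10 and CXCL11, whose products attract T cells through CXCR3, did not pass the filter. EPSTI1 had 1 to 8 reads in each library. CXCL10 had 0 and 0 reads in the control libraries, 4 and 3 in ERb_KO, 2 and 0 in the ERb1 libraries, and 3 and 8 in ERb5. CXCL11 had 1 and 1 in the control libraries, 0 and 0 in ERb_KO, 0 and 0 in the ERb1 libraries, and 4 and 1 in ERb5. With no filter on low counts, CXCL10 was called higher in ERb5 than in control, as it was without ERb5 1.

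The 2 ERb5 libraries differed in the level of every tested member. ERb5 2 exceeded ERb5 1 in 46 of 46 members, by 1.78-fold at the median and from 1.08-fold (IFI44L) to 3.43-fold (MX2) with 0.1 CPM added to each value, while 50.1% of all tested genes were higher in ERb5 2. In the other groups the second library was higher in 31 members in control, 7 in ERb_KO and 34 in ERb1, with median ratios of 1.03, 0.856 and 1.10. With ERb5 1 as the sole ERb5 library, the median log2 difference of the members from ERb_KO was 0.39, and with ERb5 2 it was 1.15. In such a fit the lone library is assumed to vary like the other groups. IFI27 was 1.16 higher (log2) than ERb_KO in the fit without ERb5 2 and 2.93 higher in the fit without ERb5 1. With only the ERb5 and ERb_KO libraries in the fit, IFI27 was not called. Libraries also differed in how their genes deviated with GC content, with correlations across genes of -0.556 and -0.453 in ERb_KO, 0.117 and 0.331 in ERb5, 0.123 and 0.19 in control, and 0.344 and -0.131 in ERb1. With that trend and the one with length removed, 22 members rose in ERb5 over ERb_KO, 18 of them among the 33. IFI44L (0.63, adjusted p = 0.007), DDX60 (0.71, adjusted p = 0.01), PARP14 (0.53, adjusted p = 0.0185) and PHF11 gained the call. It was lost for BATF2, CMPK2, GBP4, IFI35, ISG20, MX2, PARP10, PARP12, SAMD9, SP110, TRIM14, TRIM21, TRIM22, USP18 and XAF1. The calls of these members thus depended on that removal.

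**Figure D4:**
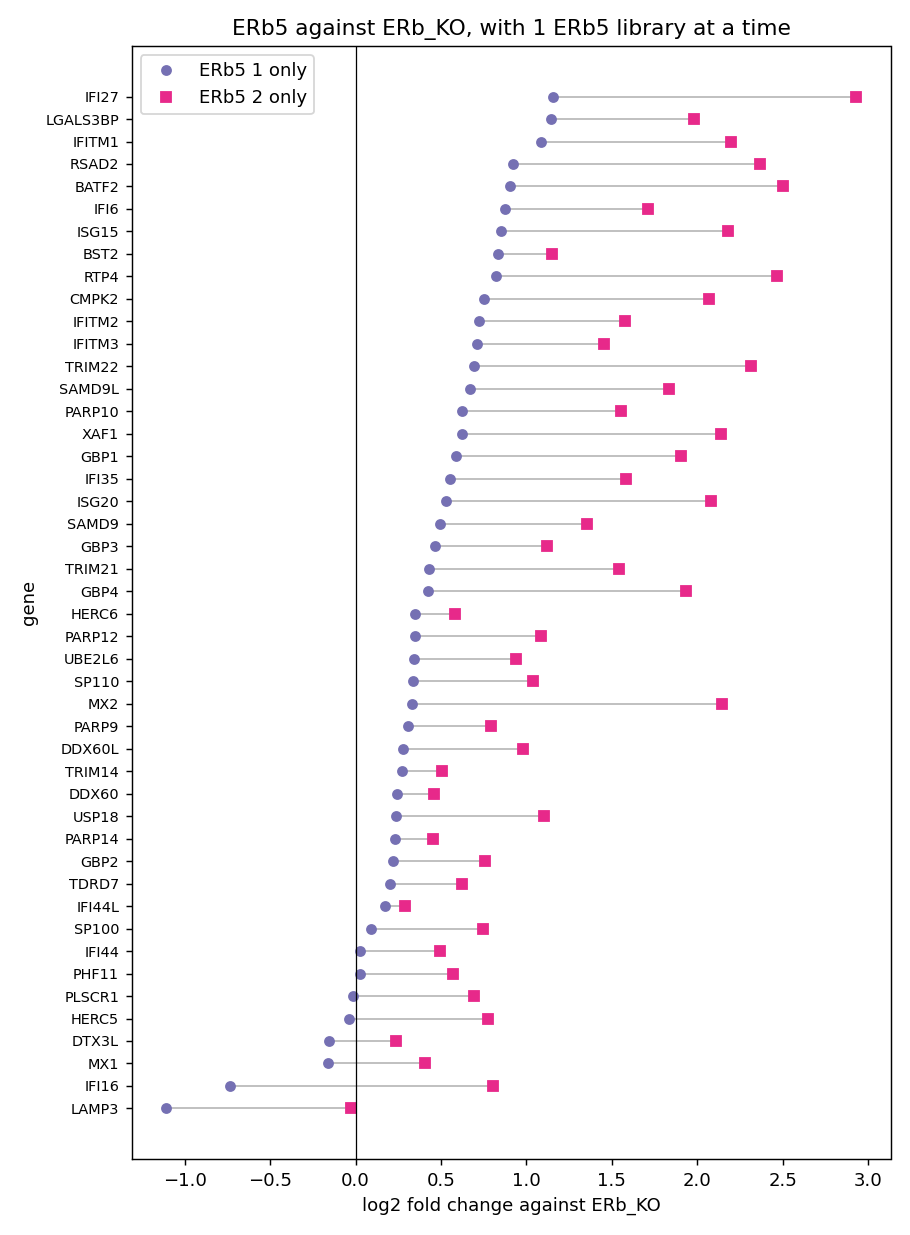
Log2 fold change against ERb_KO (horizontal axis) of the tested members (rows, sorted) with ERb5 1 alone (circles) or ERb5 2 alone (squares) as the ERb5 group. Every square lies to the right of its circle, and the gap is smallest for genes such as IFI44L, DDX60 and PARP14.

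ERb1 libraries stood nearest to control. Against control, 7 members were higher in ERb1 and 1 was lower, beside 1.36% of all tested genes higher and 2.7% lower, with a median log2 difference of 0.65 over the members and 0.01 over all tested genes. The unadjusted counts (p under 0.05) were 23 higher and 2 lower, and 43 of the 46 had a log2 difference above 0. The 7 were IFI44L (1.64 ± 0.16, adjusted p = 0.000366), HERC6 (1.54 ± 0.14), IFITM1 (1.29 ± 0.28), IFI6 (1.25 ± 0.23), BST2 (0.94 ± 0.13), GBP3 (0.91 ± 0.20) and DDX60 (0.81 ± 0.14). The call held in all 4 fits with 1 library left out for IFI44L, HERC6 and BST2, and 3 or 4 members were called in each such fit. DESeq2 called 14 members higher, and 26 were called higher with only control and ERb1 in the fit. That fit called 8.06% of all tested genes in either direction, against 4.06% in the main fit. Against control, 44 members rose in ERb5 and 0 fell, beside 6.85% and 6.31% of all tested genes. At an unadjusted p under 0.05 the counts were 46 and 0, and DESeq2 called 44 higher and 0 lower. The median log2 fold change was 2.86, with XAF1, RSAD2, RTP4, CMPK2 and IFI27 highest at 6.81, 6.59, 6.51, 5.83 and 5.69. IFI16 and LAMP3 were the 2 not called.

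Of the genes that carry the interferon signal, the ligands were near the detection limit. IFNA1, IFNA2, IFNE, IFNK and IFNG had 0 reads in every library, which allows up to 3 reads in each. IFNB1, the interferon that most cell types can make, had 0 and 2 reads in the control libraries, 6 and 4 in ERb_KO, 0 and 1 in the ERb1 libraries, and 8 and 31 in ERb5. The type III interferon IL29 (IFNL1) was the one ligand with enough reads for a test, having 4 and 4 in the control libraries, 23 and 7 in ERb_KO, 3 and 1 in the ERb1 libraries, and 21 and 61 in ERb5. Both ligands had most reads in ERb5 2. IL29 was higher in ERb5 than in ERb1 by 4.59 ± 0.87 (log2, adjusted p = 0.0124) and than in ERb_KO by 1.78 ± 0.60 (adjusted p = 0.0478), and its ERb_KO difference from control, 1.92 ± 0.90, did not pass (adjusted p = 0.155). IL29 passed the filter on low counts through the ERb5 libraries and ERb_KO 1, while the ERb1 libraries held 3 reads and 1 read. The ERb5 group, called higher, thus also admitted the gene to the test, and its p-values are a description only. Whether free ligand bore on the effector genes was not tested.

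Of 9 tested receptor and kinase genes, 3 rose in ERb_KO, 2 fell in ERb1 against ERb_KO and 1, the receptor gene IFNAR1, fell in ERb5 against ERb_KO (-0.46 ± 0.15, adjusted p = 0.038). JAK1, the kinase shared by all interferon receptors, had 171 and 177 CPM in the control libraries, 236 and 209 in ERb_KO, 198 and 195 in the ERb1 libraries, and 201 and 198 in ERb5, a rise of 0.35 ± 0.10 in ERb_KO (log2, adjusted p = 0.0277). JAK2, the kinase of the interferon gamma receptor, rose by 0.70 ± 0.13 in ERb_KO (adjusted p = 0.0068) and fell in ERb1 against ERb_KO (-0.71 ± 0.13, adjusted p = 0.00359). IFNGR1, a chain of that receptor, rose by 0.43 ± 0.13 (adjusted p = 0.0429) and fell in ERb1 against ERb_KO (-0.62 ± 0.13, adjusted p = 0.00607). TYK2 differed by -0.18 ± 0.12 in ERb_KO (adjusted p = 0.314).

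Among 7 STAT and IRF genes, 4 rose in ERb_KO, 4 fell and 1 rose in ERb1 against ERb_KO, and 5 rose in ERb5 over ERb_KO. Beside these, 8.98% of all tested genes rose in ERb_KO, and 12.5% fell and 12.4% rose in ERb1 against ERb_KO. The share that rose in ERb5 over ERb_KO was 14.7%. STAT2 and IRF9 encode subunits of ISGF3. STAT2 had 69.2 and 73.3 CPM in the control libraries, 177 and 133 in ERb_KO, 103 and 83.9 in the ERb1 libraries, and 209.9 and 334 in ERb5. IRF9 had 116 and 124 CPM in the control libraries, 244 and 255 in ERb_KO, 174 and 162 in the ERb1 libraries, and 294 and 398 in ERb5. The groups did not overlap in either gene, and the levels followed the order most members showed. STAT2 and IRF9 rose by 1.12 ± 0.21 and 1.05 ± 0.13 in ERb_KO (log2, adjusted p = 0.00906 and 0.0009) and were 1.54 ± 0.21 and 1.04 ± 0.13 higher in ERb5 than in ERb1. IRF7, which amplifies interferon production, had 11 and 10.5 CPM in the control libraries, 32.1 and 36.8 in ERb_KO, 14.3 and 11.7 in the ERb1 libraries, and 41.7 and 101 in ERb5, and rose by 1.67 ± 0.34 in ERb_KO (adjusted p = 0.0135).

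Of 11 RNA and DNA sensors and their relays, 7 rose in ERb_KO, 6 fell in ERb1 against ERb_KO and 4 rose in ERb5 over ERb_KO. ADAR, which edits double-stranded RNA, rose by 0.92 ± 0.11 in ERb_KO (log2, adjusted p = 0.000667), and the adaptor MAVS differed by -0.18 ± 0.12 (adjusted p = 0.312). Of 8 IFIT and OAS genes, 8 rose in ERb_KO, 8 fell in ERb1 against ERb_KO and 7 rose in ERb5 over ERb_KO. Beside both lists, 8.98% of all tested genes rose in ERb_KO, 12.5% fell in ERb1 against ERb_KO and 14.7% rose in ERb5 over ERb_KO. OAS3 and IFIT1 rose by 2.73 ± 0.18 and 3.65 ± 0.23 in ERb_KO. Of 6 inhibitors of the response, the phosphatase gene PTPN6 fell in ERb_KO (-0.40 ± 0.11, adjusted p = 0.0296) and the other 5 did not pass the test. Beside it, 8.52% of all tested genes fell there. PTPN1 differed by 0.06 ± 0.10 (adjusted p = 0.688). In ERb1 against ERb_KO 2 of the 6 rose and 0 fell, while 12.4% of all tested genes rose. PTPN6 rose by 0.68 ± 0.11 (adjusted p = 0.00136) and SOCS3, a feedback inhibitor of cytokine receptors, by 0.97 ± 0.18 (adjusted p = 0.00309). In ERb5 against ERb_KO 3 of the 6 rose and 0 fell, while 14.7% of all tested genes rose. PTPN6 rose by 0.68 ± 0.11 (adjusted p = 0.00219), SOCS3 by 1.35 ± 0.18 (adjusted p = 0.000801) and SOCS1, an inhibitor of JAK kinases, by 1.28 ± 0.39 (adjusted p = 0.0333). The levels of SOCS1 were 1.22 and 1.45 CPM in ERb_KO and 1.81 and 4.74 CPM in the ERb5 libraries. The plot of upstream genes shows the spread of these levels.

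**Figure D5:**
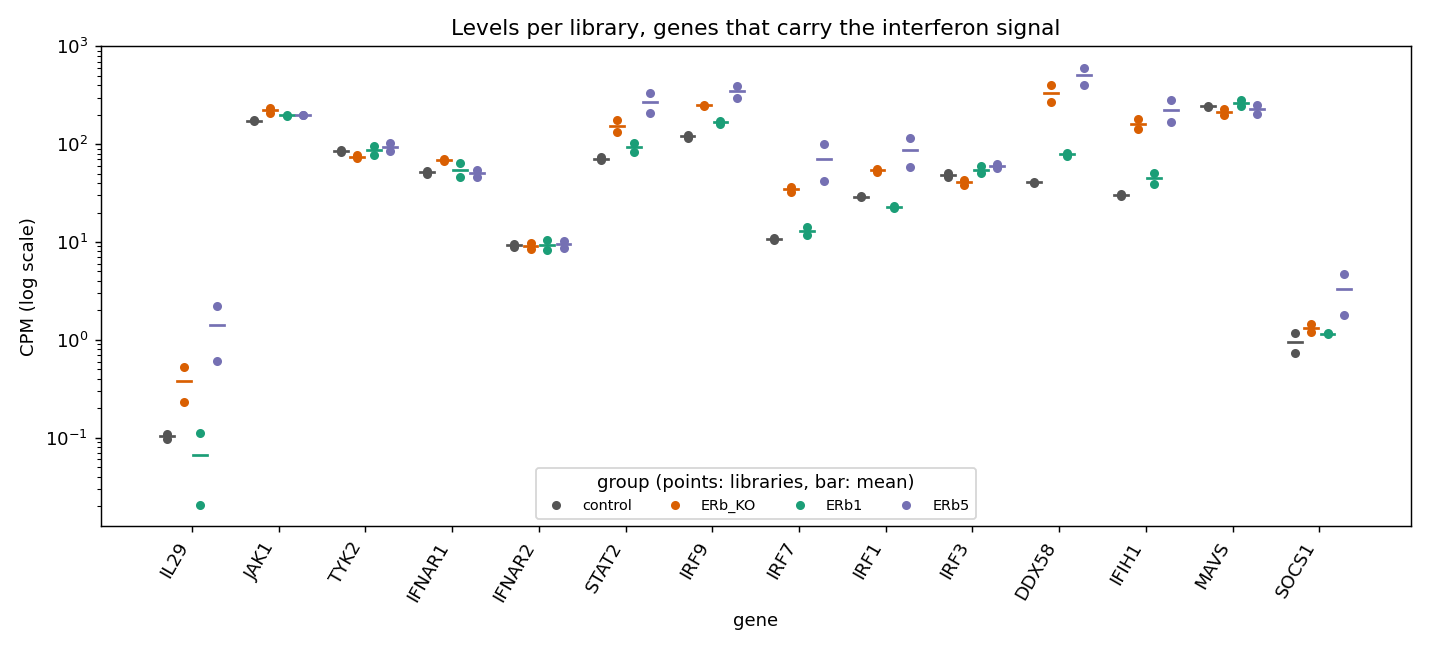
Level in CPM (vertical axis, log scale) of genes of the interferon pathway in the 8 libraries. Points are libraries and short bars are group means. STAT2, DDX58, IFIH1 and IRF7 are separated between control and ERb_KO, while IFNAR2, TYK2 and MAVS are nearly level across groups.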

How the data were processed

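Reads per gene were measured in 8 libraries. The submitters' processing notes list bcl2fastq, TopHat2 2.0.8b with the build hg19, and HTSeq. The deposited values are raw counts of reads per gene, as whole numbers. The sources used here give neither a strand setting nor an annotation release. The 5 closing entries that name no gene were left out of library sizes and tests, and 34.7 to 39.9% of counted reads did not align to a single place.

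Samples were grouped by title. Genes were filtered with filterByExpr (minimum count 10, minimum total 15), which left 13915, scaled with TMM and tested with edgeR 4.0.16 in R 4.3.3 (robust quasi-likelihood, all 8 libraries in 1 fit, biological coefficient of variation 0.102). P-values were adjusted by Benjamini-Hochberg over all tested genes, and standard errors are the log2 fold change over the square root of F. Fits were tested on simulated data. The 49 symbols and all lists were chosen with earlier results of these data known, so no list has a test of its own. Values in all libraries are given for the 2 members of each role list with the highest mean level. Further members are named for the 5 largest rises or falls in a comparison, for missing the threshold in ERb_KO against control, for going against the rest, or for being untested, and a few others by choice after their values were seen, to complete a role list. Pathway lists are given by counts, with set genes and up to 2 more by mean level, apart from IL29, IFNAR1, IFNGR1, JAK2, SOCS1, SOCS3 and PTPN6, which were added after their values were seen. Libraries within a group differed by more than sampling noise (chi-square per degree of freedom 7.52 to 41.4). Alternatives were other size factors and filters, a minimum change of 1.5-fold, only the groups compared, DESeq2 1.42.0, a replicate block, removal of GC and length trends, and leaving out each library. GC content is that of canonical transcripts of the reference annotation (GENCODE, GRCh37). A comparison of protein sequences was not run. A few items of the pathway lists are not reported here, and the list counts leave them out.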

Additional observations from a re-analysis of the deposited data

Results flagged for a closer look

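The libraries labelled ERb5 and ERb1 differed when compared directly, and 46 of 46 tested members were higher in ERb5 by edgeR. The median log2 difference was 2.39. Beside it stand the higher levels in ERb5 2 than in ERb5 1, by 1.78-fold at the median, and the higher summed leukocyte markers in ERb5, 10.4 to 14.4 against 5.12 to 5.41 CPM in ERb1. Most of that sum was CD68, with 9.19 and 13.2 CPM in ERb5 and 4.47 and 4.07 in ERb1, while PTPRC stayed at or below 0.0367 CPM. What part the ERb5 2 levels or these markers had in the difference was not tested. Without ERb5 2 the count was 42, and without ERb1 1 it was 23.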

How the results depend on the processing

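Over all alternatives, 1567 of 1773 results for members named by the rule kept their direction and side of the threshold, 134 lost the call, 70 gained one and 2 changed sign. Those 2 were not called, GBP2 in ERb1 against ERb_KO (0.035 with GC and length trends removed) and PLSCR1 in ERb5 against ERb_KO (-0.018 without ERb5 replicate 2 and 0.69 without ERb5 replicate 1). Outside that tally, other differences that were not called also took both signs when 1 library was left out. Against ERb_KO these were HERC5 (-0.037 to 0.77), DTX3L (-0.16 to 0.24), IFI16 (-0.74 to 0.81) and MX1 (-0.16 to 0.41) in ERb5 and IFITM2 (-0.095 to 0.10) in ERb1, and against control DTX3L (-0.012 to 0.23), MX1 (-0.19 to 0.15) and MX2 (-0.053 to 0.49) in ERb1. Their causes, and those of the count changes that follow, were not tested.

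With a minimum change of 1.5-fold, 25 members fell in ERb1 against ERb_KO and 3 rose in ERb5 against ERb_KO. Against control, 2 were then higher and 0 lower in ERb1. With only the groups compared in the fit, 10 rose in ERb5 against ERb_KO, 28 were higher in ERb5 than in ERb1 and 26 higher in ERb1 than in control. With no filter on low counts, 29 were higher and 2 lower in ERb1 against control, and 1 was lower in ERb5 against ERb_KO. In ERb1 against control, DESeq2 called 14 higher, and removal of the GC and length trends gave 11 higher and 0 lower.

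Leaving out 1 library at a time, members that rose ran from 29 to 39 in ERb_KO against control, from 5 to 41 between ERb5 and ERb_KO, from 23 to 46 between ERb5 and ERb1, from 3 to 4 in ERb1 against control and from 41 to 47 in ERb5 against control. Members that fell ran from 22 to 34 in ERb1 against ERb_KO, from 0 to 1 in ERb5 against ERb_KO and from 0 to 0 in ERb1 against control. The share of all tested genes called also changed between these fits. The wider-spaced motif was found in 9.76% of members.

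Libraries that share a replicate number did not deviate together throughout (correlations of -0.118 to 0.133 over tested genes), so they share only a number. With the replicate block, 43 members rose in ERb_KO against control, 40 fell in ERb1 against ERb_KO, 29 rose in ERb5 against ERb_KO, 46 were higher in ERb5 than in ERb1, 9 rose and 1 fell in ERb1 against control, and 46 rose in ERb5 against control. With the control numbers swapped, a pairing chosen after seeing the data, 42 rose in ERb_KO and 9 in ERb1 against control. With 2 libraries a group, and 3 members under the filter, small differences were beyond reach.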
